A study of Mus musculus with 8 samples.

Results

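The regions described here are the open chromatin regions around the genes of 3 bone morphogenetic protein (BMP) ligands, Bmp2, Bmp4 and Bmp7, the secreted BMP antagonist Noggin (Nog) and the transcription factors Msx1 and Msx2, which are known targets of BMP signalling. They are every counted region that overlaps a fixed window around each of the 6 genes in the mouse build mm9. They number 30 of the 26620 regions counted in the series. Within the windows no region was chosen by its own values. The genes and windows were chosen with earlier results of these data known. The windows hold 8 regions at Bmp2 (133.25 to 133.60 Mb of chromosome 2), 3 at Bmp4 (46.90 to 47.15 Mb of chromosome 14), 7 at Bmp7 (172.62 to 172.85 Mb of chromosome 2), 2 at Nog (89.05 to 89.30 Mb of chromosome 11), 6 at Msx1 (38.10 to 38.35 Mb of chromosome 5) and 4 at Msx2 (53.45 to 53.75 Mb of chromosome 13). ATAC-seq reads out accessibility with the Tn5 transposase, which cuts and tags open DNA, and was applied to tailbuds dissected from mouse embryos at embryonic day 9.5. Tailbuds of wild-type embryos (WT/WT, here WT) were compared with those of embryos carrying the Danforth's short tail mutation on both chromosomes (Sd/Sd), in 4 libraries each. All embryos came from a colony kept on the outbred CD-1 stock, and a library holds tailbuds of more than 1 mouse where material was short, so each p-value reflects spread among libraries that may be pools. Total counts over the 26620 regions were 2873918 to 4180434 per library, with 76 to 106 counts in the median region.

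As background, BMPs are secreted ligands of the TGF-beta superfamily. They bind serine/threonine kinase receptors, whose activity leads to phosphorylated SMAD proteins that enter the nucleus and switch on target genes, among them Msx1 and Msx2. Noggin binds BMPs outside the cell and keeps them from their receptors. In the trunk and tail of the embryo Noggin is known to be made by the notochord and dorsal neural tube, while BMPs are made by ventral and lateral tissues, the hindgut region and the dorsal neural tube, and the balance between them takes part in patterning the mesoderm. Danforth's short tail is known as a mutation of chromosome 2 in which the notochord breaks down and the tail vertebrae, kidneys and hindgut are malformed. Bmp2 and Bmp7 lie on the same chromosome as the mutation. These are whole tailbuds, so fewer cells of a type and less accessibility per cell cannot be told apart in any value below.

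RefSeq promoters were found for 3 of the 6 genes, Bmp4, Msx1 and Msx2, and are shown for the base composition of the gene starts around which these windows were set. Each line gives the 250 bases before the gene's start, 5′ to 3′ on the gene's own strand, in the RefSeq build GRCm38.p6. Capitals mark CpG dinucleotides, which are known to cluster at the promoters of developmental genes.
Bmp4, chr14:46390670-46390919, minus strand: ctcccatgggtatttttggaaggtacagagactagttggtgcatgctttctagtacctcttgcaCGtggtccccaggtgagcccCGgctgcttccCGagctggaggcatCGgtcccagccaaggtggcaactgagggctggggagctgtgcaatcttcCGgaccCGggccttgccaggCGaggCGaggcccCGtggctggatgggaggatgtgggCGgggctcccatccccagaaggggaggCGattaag
Msx1, chr5:37824586-37824835, minus strand: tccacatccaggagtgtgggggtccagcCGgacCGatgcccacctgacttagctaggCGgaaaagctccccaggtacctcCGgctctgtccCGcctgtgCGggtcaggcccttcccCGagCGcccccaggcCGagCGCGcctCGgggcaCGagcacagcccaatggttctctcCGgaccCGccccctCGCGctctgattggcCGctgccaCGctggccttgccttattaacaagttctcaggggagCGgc
Msx2, chr13:53472781-53473030, minus strand: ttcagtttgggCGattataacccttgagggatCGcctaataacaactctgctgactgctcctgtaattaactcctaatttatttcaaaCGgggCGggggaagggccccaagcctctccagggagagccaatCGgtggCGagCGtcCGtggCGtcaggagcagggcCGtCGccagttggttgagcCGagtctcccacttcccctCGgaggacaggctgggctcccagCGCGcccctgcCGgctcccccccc
The 250 bases hold 11 CpGs at Bmp4, 20 at Msx1 and 16 at Msx2. Over the 300 bases that include the first 50 after the start, the CpG count was 12, 29 and 22, against a median of 7 over the 32851 promoters of the table. All 3 promoters were GC-rich, at 64.0%, 70.0% and 61.0% G and C against a table median of 52.7%. None of the 3 held any of 6 motifs searched on both strands: the BMP SMAD element GGCGCC (in 11.9% of all promoters), the LEF/TCF motif CTTTGAT (3.73%), the GLI core CCACCCA (9.30%), the T-box motif TCACACC (3.98%), the CDX motif TTTATGG (2.75%) and the TATA box TATAAA (13.6%). This says only that these letters are not in these windows of 300 bases. The counted regions carry mm9 positions and the promoters GRCm38 positions, so no promoter was placed on a region, and which regions lie in a promoter, exon or intron was not analysed here.

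Around the BMP ligands, Noggin and the MSX genes, no region differed in accessibility between WT and Sd/Sd tailbuds past the test. Of the 30 regions, 0 had an adjusted p under 0.05 in edgeR (quasi-likelihood test with Benjamini-Hochberg adjustment over all 26620 regions), where 0.0188% of all regions did. DESeq2 and limma with voom also gave 0. An unadjusted p under 0.05 was reached by 1 of 30 regions (3.33%), a region at Nog that was lower in Sd/Sd, against 6.06% of all regions in either direction. By direction, 0 of the 30 were higher at that level, against 2.98% of all regions, and 1 was lower, against 3.09%, so these counts were near the background. The count of 1 became 2 without WT replicate 2, WT replicate 4 or Sd/Sd replicate 3. It became 3 when either of Sd/Sd replicates 1 and 2 was left out. The fitted log2 fold changes of Sd/Sd over WT ran from -0.44 to 0.36, with 14 regions above and 16 below 0. Their median was -0.0177, beside 0.000567 over all regions. Of those above 0, 5 were counted through peaks in Sd/Sd libraries alone, among them the highest at 0.36. The split and the upper end of the range cannot be read apart from that.

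The 95% intervals stayed inside 2-fold in either direction for 30 of 30 regions (98.1% of all regions) and within 1.5-fold for 21 (70.0%, against 73.8%). A change above 2-fold was therefore outside the interval of each region. At the other 9 the interval reached past 1.5-fold. By role, the interval lay within 1.5-fold for 15 of 18 ligand regions, 2 of 2 Nog regions and 4 of 10 MSX regions. The median region held 59.6 counts per library among the MSX regions and 95.9 among the ligand regions.

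**Figure D1:**
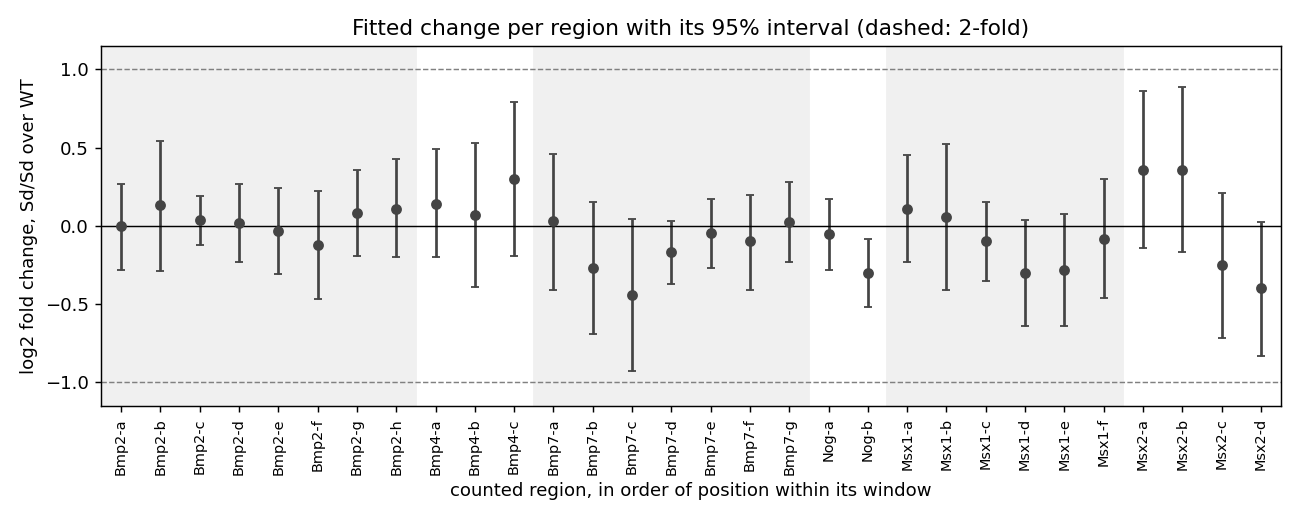
Fitted log2 fold change of Sd/Sd over WT for each of the 30 regions (points) with its 95% interval (bars), named by gene and by letter in order of position. The dashed lines mark 2-fold, which none of the intervals crosses, and the interval of Nog-b is the only one that leaves out 0.

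The summed levels of the windows differed far more from one another than the genotypes did. Summed over its regions, accessibility as CPM (the count scaled to a library total of 1000000) was 427 at Bmp2, 252 at Bmp7, 149 at Msx1, 121 at Nog, 51.9 at Msx2 and 48.8 at Bmp4 (means over the 8 libraries). The sums had the same order as the length covered by the counted regions, except at Msx2 and Bmp4. That length was 11382 bp at Bmp2, 5971 bp at Bmp7, 5712 bp at Msx1, 3833 bp at Nog, 1845 bp at Bmp4 and 1722 bp at Msx2. Per kb of counted region the level was 42.2 CPM at Bmp7, 37.5 at Bmp2, 31.6 at Nog, 30.1 at Msx2, 26.4 at Bmp4 and 26.1 at Msx1, so that per length the windows lay much closer together. In the order of the sums, the libraries of neighbouring windows did not overlap, except those of Msx1 and Nog (136 to 164 and 110 to 141 CPM) and those of Msx2 and Bmp4 (43.5 to 59.2 and 37.8 to 56.4 CPM).

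Compared with all counted regions, the 30 were of ordinary size. Their median width was 858 bp (874 bp over all regions), their median level 23.8 CPM (25.8) and their median density 28.5 CPM per kb (32.9). The coefficient of variation over the 8 libraries had a median of 15% (15.3%). It exceeded counting noise alone in 28 of 30 regions (89.0% of all regions). Of the MSX regions, 1 of 10 lay above the median level of all regions and 7 of 10 above the median coefficient of variation. The 3 Bmp4 regions were low in level too, at percentiles 10.4 to 44.3. Their coefficients of variation were at percentiles 63.2 to 85.6.

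**Figure D2:**
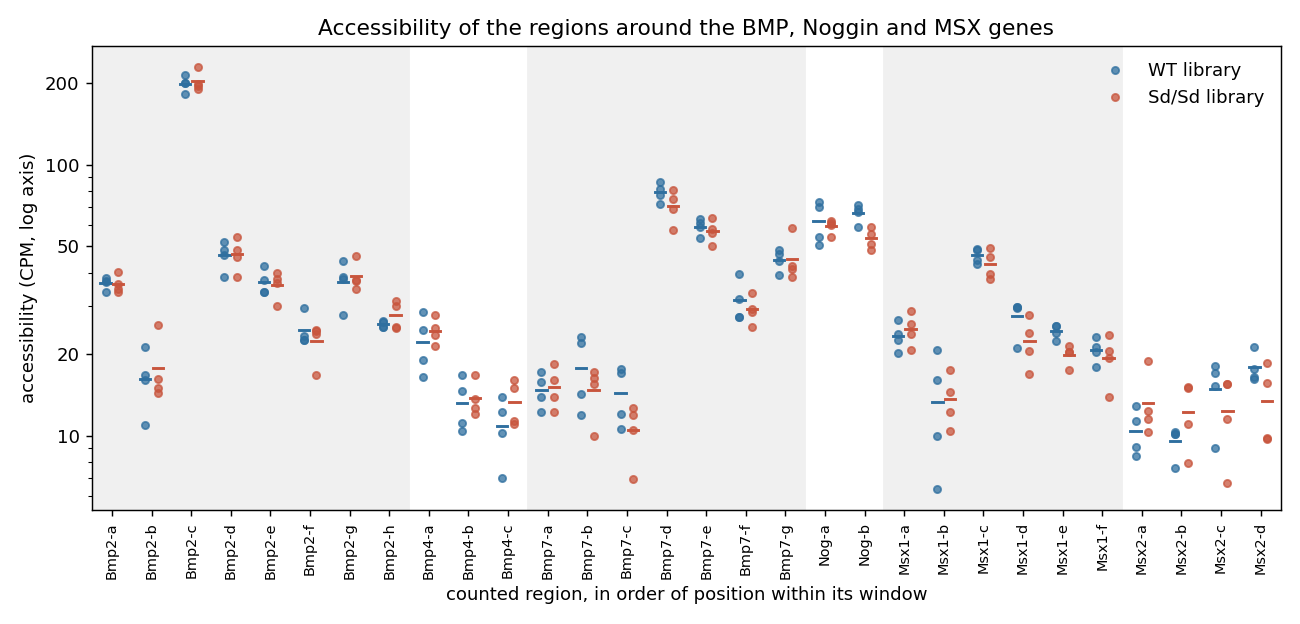
Accessibility in CPM (log axis) of the 30 regions in each of the 4 WT and 4 Sd/Sd libraries (points), with the mean of each genotype as a short line. Bmp2-c stands highest at 183 to 230 CPM, and the genotypes overlap at each region except Msx1-e.

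The Bmp2 window had the highest sum, and its libraries overlapped between the genotypes. BMP2 is a ligand needed for the heart, the amnion and, later, for cartilage and bone. Its summed accessibility was 408, 419, 429 and 437 CPM in WT and 401, 416, 436 and 465 CPM in Sd/Sd, each in the order of replicates 1 to 4, as in all lists of values here. The Sd/Sd libraries lay on both sides of the WT libraries. WT averaged 423 ± 12.8 CPM and Sd/Sd 430 ± 27.7 CPM (SD, n = 4 each), a fold change of 1.01 (95% interval 0.938 to 1.10).

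Of this sum 47.3% came from 1 region, Bmp2-c (chr2:133377661-133380807), which at 3147 bp was wider than 99.8% of all regions. It held 183, 215, 200 and 201 CPM in WT and 195, 190, 199 and 230 CPM in Sd/Sd, a level at percentile 99.5 of all regions. Every Sd/Sd library but replicate 4 lay within the WT range. Its log2 fold change was 0.036 (SE 0.0803, edgeR adjusted p = 0.983). The region with the smallest unadjusted p of the window, Bmp2-h (chr2:133542169-133543297), held 25.2, 26.2, 25.1 and 26.6 CPM in WT and 25.3, 30.1, 31.4 and 24.9 CPM in Sd/Sd. Sd/Sd replicates 2 and 3 stood above the WT libraries and the others did not. Its log2 fold change was 0.11 (SE 0.163, edgeR unadjusted p = 0.480, adjusted p = 0.969).

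The other 6 Bmp2 regions lay on both sides of Bmp2-c, from Bmp2-a (chr2:133249851-133251098) at the edge of the window to Bmp2-g (chr2:133460712-133461697). Their mean levels ran from 17.0 CPM at Bmp2-b (chr2:133334414-133335025) to 46.7 CPM at Bmp2-d (chr2:133391827-133393730), 11 kb beyond Bmp2-c. A group of 3, Bmp2-e (chr2:133440451-133441852), Bmp2-f (chr2:133454146-133455099) and Bmp2-g, was spaced by gaps of 12.3 and 5.61 kb. Of these, Bmp2-e and Bmp2-g were called as peaks in 8 of 8 libraries and Bmp2-f in 3. The log2 fold changes of these 6 regions ran from -0.12 to 0.13.

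The Bmp4 window held few and weak regions. BMP4 is a ligand needed for the formation of mesoderm, allantois and germ cells. The window's sum was 51.3, 53.0, 42.8 and 37.8 CPM in WT and 56.4, 49.5, 52.2 and 47.8 CPM in Sd/Sd. WT replicates 3 and 4 were the low libraries, and the other WT libraries lay within the Sd/Sd range. WT averaged 46.2 ± 7.17 CPM and Sd/Sd 51.5 ± 3.72 CPM (SD, n = 4 each), a fold change of 1.11 (95% interval 0.932 to 1.33). As a log2 value this was 0.15, and 0.065 to 0.23 with 1 library left out. It was lowest without WT replicate 4 and highest without WT replicate 2. The sum includes Bmp4-c, which was counted through peaks in Sd/Sd libraries alone. The direction of the window's change cannot be read apart from that.

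All 3 regions had a fitted change above 0, and none passed the test. The highest, Bmp4-a (chr14:47006920-47007888), held 28.7, 24.5, 19.1 and 16.4 CPM in WT and 27.8, 21.4, 23.5 and 24.9 CPM in Sd/Sd, with the genotypes overlapping. Its log2 fold change was 0.14 (SE 0.177, edgeR adjusted p = 0.959), and it ran from 0.023 with WT replicate 4 left out to 0.30 with WT replicate 1 left out. Leaving out Sd/Sd replicate 1 gave 0.078 and WT replicate 3 gave 0.081. Bmp4-b (chr14:47010217-47010645) lay 2.33 kb away, at 10.4 to 16.7 CPM in WT and 12.0 to 16.8 in Sd/Sd. Bmp4-c (chr14:47056245-47056691), 45.6 kb further, held 12.2, 13.9, 6.96 and 10.2 CPM in WT and 15, 11.3, 16 and 11 CPM in Sd/Sd. WT replicate 3, the shallowest library, was the lowest there, on 20 counts. At Bmp4-c the log2 fold change was 0.30 (SE 0.250, edgeR unadjusted p = 0.233, adjusted p = 0.914), and 0.14 without WT replicate 3. A peak was called on Bmp4-c in 3 Sd/Sd and 0 WT libraries. It was thus counted through the genotype in which it was higher, and the direction of its change cannot be read apart from that.

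The Bmp7 window held the densest region of the 30. BMP7 is a ligand needed for the growth of the kidney and the eye. The window's sum was 260, 263, 271 and 254 CPM in WT and 276, 256, 228 and 211 CPM in Sd/Sd. The WT libraries lay close together, while Sd/Sd ran from above to below them, so that the Sd/Sd libraries were the more spread. WT averaged 262 ± 6.89 CPM and Sd/Sd 242 ± 29.0 CPM (SD, n = 4 each), a fold change of 0.924 (95% interval 0.841 to 1.01). As a log2 value this was -0.11, which became -0.049 when Sd/Sd replicate 4 was left out and -0.19 when Sd/Sd replicate 1 was. In the latter case the unadjusted p was 0.00863 and the adjusted p 0.251 (edgeR), so the difference did not pass there either.

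Bmp7-d (chr2:172765527-172766456) had the highest density of the 30, 80.6 CPM per kb, at percentile 95.3 of all regions. It held 81.7, 86.4, 72.0 and 77.3 CPM in WT and 81.1, 74.8, 68.8 and 57.6 CPM in Sd/Sd. Sd/Sd replicates 3 and 4 lay below the WT libraries and the others within them. The log2 fold change was -0.17 (SE 0.102, edgeR unadjusted p = 0.101, adjusted p = 0.874), and -0.084 without Sd/Sd replicate 4. Bmp7-c (chr2:172713693-172714359), with the smallest p of the window, held 17.1, 10.6, 17.7 and 12.0 CPM in WT and 11.9, 12.6, 6.94 and 10.5 CPM in Sd/Sd. Its log2 fold change was -0.44 (SE 0.247, edgeR unadjusted p = 0.0742, adjusted p = 0.846), with the genotypes overlapping.

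The remaining Bmp7 regions formed a weak pair and a stronger trio. The pair, Bmp7-a (chr2:172650343-172650967) and Bmp7-b (chr2:172656640-172657356), had mean levels of 15 and 16.3 CPM. The trio was Bmp7-e (chr2:172825166-172826388) at 58.2 CPM, Bmp7-f (chr2:172845019-172845695) at 30.5 CPM and Bmp7-g (chr2:172847013-172848144) at 44.9 CPM. The log2 fold changes of these 5 regions ran from -0.27 to 0.028.

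The Nog window held 2 wide regions 1.55 kb apart, and one of them had the smallest p of the 30. The window's sum was 110, 140, 141 and 123 CPM in WT and 111, 116, 112 and 113 CPM in Sd/Sd. The Sd/Sd libraries lay close together near the lowest WT library, and the other 3 WT libraries stood above them. WT averaged 129 ± 15.2 CPM and Sd/Sd 113 ± 2.14 CPM (SD, n = 4 each), a fold change of 0.878 (95% interval 0.776 to 0.993). In the fit over windows and bins the unadjusted p was 0.0388 and the adjusted p 0.633 (edgeR), so the difference did not pass. The unadjusted p was 0.153 without either of WT replicates 2 and 3, 0.0572 without Sd/Sd replicate 1 and 0.0678 without Sd/Sd replicate 3.

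Nog-b (chr11:89163232-89165018) held 58.8, 67.2, 71.3 and 68.8 CPM in WT and 48.6, 55.7, 51.0 and 59.1 CPM in Sd/Sd. The genotypes met only where Sd/Sd replicate 4 reached past WT replicate 1. The means were 66.5 ± 5.42 and 53.6 ± 4.70 CPM (SD, n = 4 each), with a log2 fold change of -0.30 (SE 0.112, 95% interval -0.52 to -0.082). The unadjusted p was 0.00738 and the adjusted p 0.709 (edgeR), and 6.06% of all regions had an unadjusted p under 0.05. With 1 library left out the log2 fold change of Nog-b ran from -0.36 to -0.26. Nog-a (chr11:89159638-89161683) held 50.7, 73.2, 69.9 and 54.2 CPM in WT and 61.9, 59.9, 60.9 and 54.3 CPM in Sd/Sd. There the Sd/Sd libraries lay inside the WT range, with a log2 fold change of -0.054 (SE 0.112, edgeR adjusted p = 0.981). The difference between the changes of Nog-a and Nog-b was not tested.

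The Msx1 window held 6 regions, none of which passed the test. MSX1 and MSX2 are homeodomain transcription factors of limb, face, tooth and dorsal neural tube. The sum of the Msx1 window was 146, 160, 164 and 151 CPM in WT and 142, 149, 136 and 146 CPM in Sd/Sd. The genotypes overlapped between 146 and 149 CPM. WT averaged 155 ± 8.15 CPM and Sd/Sd 143 ± 5.54 CPM (SD, n = 4 each), a fold change of 0.921 (95% interval 0.825 to 1.03).

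The highest region, Msx1-c (chr5:38215008-38216685), held 43.2, 44.7, 48.4 and 48.9 CPM in WT and 45.8, 39.5, 49.2 and 38.0 CPM in Sd/Sd. Sd/Sd replicates 2 and 4 lay below the WT libraries, and replicates 1 and 3 did not. The log2 fold change was -0.098 (SE 0.128, edgeR adjusted p = 0.963). Its neighbour Msx1-d (chr5:38217965-38218688), 1.28 kb away, held 29.8, 29.8, 29.6 and 21.1 CPM in WT and 23.9, 27.8, 16.9 and 20.6 CPM in Sd/Sd. WT replicate 4 lay among the Sd/Sd libraries, and the other 3 WT libraries stood above all of Sd/Sd. The log2 fold change of Msx1-d was -0.30 (SE 0.171, edgeR unadjusted p = 0.0792, adjusted p = 0.859).

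Msx1-e (chr5:38284753-38285537), named here after its values were seen, was the 1 region of 30 (3.33%) at which the genotypes did not overlap, which 3.20% of all regions showed. It held 24.0, 25.5, 25.4 and 22.3 CPM in WT and 20.3, 21.4, 17.5 and 20.3 CPM in Sd/Sd, with a log2 fold change of -0.28 (SE 0.181, edgeR unadjusted p = 0.121, adjusted p = 0.875). Msx1-f (chr5:38286639-38287298), 1.10 kb away, overlapped between the genotypes at 17.9 to 23.2 CPM in WT and 13.9 to 23.6 in Sd/Sd. Msx1-a (chr5:38107903-38109138) had a mean level of 24.1 CPM. Msx1-b (chr5:38208178-38208806) was the most variable of the 30, with a coefficient of variation of 34.5% where counting alone gives 15.9%. It ran from 6.37 to 20.8 CPM within WT, a range that took in each Sd/Sd library.

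The Msx2 window held 4 narrow regions. The fitted changes lay above 0 at Msx2-a and Msx2-b, which were counted through peaks in Sd/Sd libraries alone. They lay below 0 at Msx2-c and Msx2-d, which had WT peaks. The window's sum was 43.8, 57.9, 58.8 and 50.1 CPM in WT and 59.2, 48.5, 53.7 and 43.5 CPM in Sd/Sd. The genotypes overlapped over nearly the whole range. WT averaged 52.6 ± 7.11 CPM and Sd/Sd 51.2 ± 6.72 CPM (SD, n = 4 each), a fold change of 0.973 (95% interval 0.818 to 1.16). The sum includes Msx2-a and Msx2-b, so its change cannot be read apart from how these were counted.

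Msx2-d (chr13:53571154-53571696) had the highest level of the window and its smallest p. It held 16.2, 21.2, 17.7 and 16.4 CPM in WT and 18.6, 9.71, 15.7 and 9.81 CPM in Sd/Sd. Sd/Sd replicates 2 and 4 were low, and replicates 1 and 3 near the WT libraries. The log2 fold change was -0.40 (SE 0.217, edgeR unadjusted p = 0.0645, adjusted p = 0.840). Msx2-c (chr13:53568002-53568386), 2.77 kb away, had a log2 fold change of -0.25. Msx2-b (chr13:53557756-53558185) lay 9.82 kb before Msx2-c, and Msx2-a (chr13:53472609-53472972) 84.8 kb before Msx2-b. Both had log2 fold changes of 0.36. Their peaks were called in Sd/Sd libraries alone, so they were counted through the genotype in which they were higher. The direction of their changes cannot be read apart from that. None of the changes at Msx2-a, Msx2-b and Msx2-c passed the test (edgeR adjusted p from 0.884 to 0.933).

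**Figure D3:**
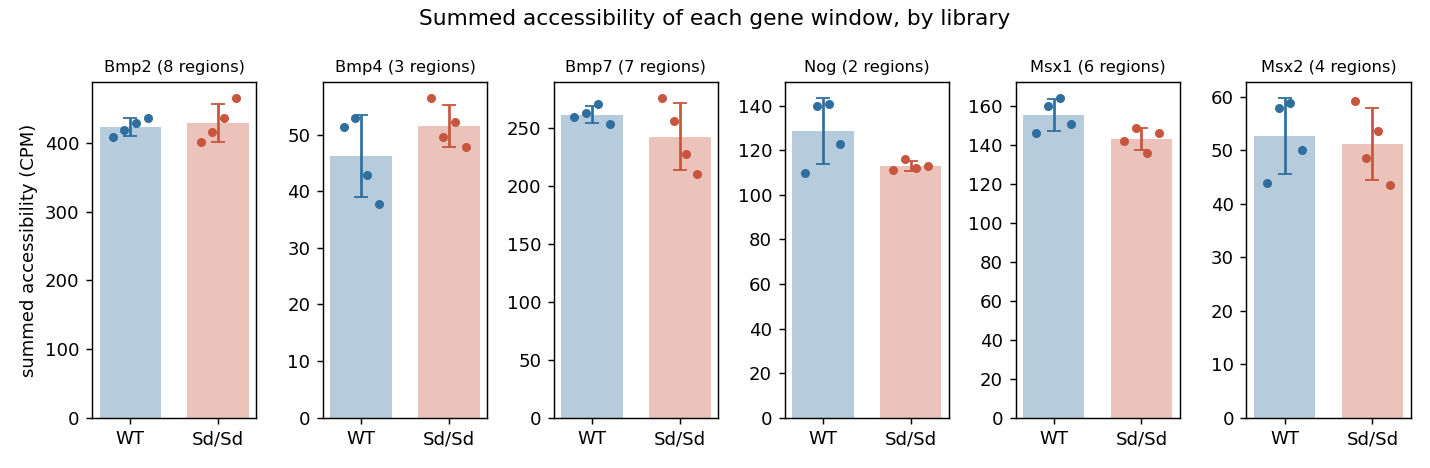
Summed accessibility in CPM of each gene window in the 4 WT and 4 Sd/Sd libraries (points, replicates 1 to 4 from left to right), with the mean (bar) and SD (error bar). Each panel has its own axis from 0, and the genotypes overlap in each of the 6 windows.

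On summed counts, 0 of the 6 gene windows had an adjusted p under 0.05 when fitted together with 250 kb bins of all other regions (edgeR, adjusted over 7991 windows and bins), where 0.0250% of windows and bins did. DESeq2 and limma with voom also gave 0. An unadjusted p under 0.05 was reached by 1 window, Nog, against 7.80% of all windows and bins. Across the alternatives the number of windows at that level ran from 0 to 2, and the Bmp7 window was among them with a replicate block (unadjusted p = 0.0453 in edgeR) and without Sd/Sd replicate 1. The adjusted p of the other 5 ran from 0.723 at Bmp7 to 0.972 at Msx2. The sums of Bmp2, Bmp4, Bmp7 and Msx2 include regions that were counted through peaks in Sd/Sd libraries alone. Across the 8 libraries the sums of Nog and Msx1 followed each other most closely of the 15 pairs of windows, at a Pearson's r of 0.905 of log2 CPM, and Bmp2 and Bmp7 were the most opposed, at -0.840. These values describe 8 libraries that share genotype, depth and preparation between the windows.

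The authors' peak calls, made in each library alone, put a peak on 6 of the 30 regions (20%) in 8 of 8 libraries, where 41.3% of all regions had one. These were Bmp2-c, Bmp2-e and Bmp2-g and, at Bmp7, the regions d, e and g. The number of the 30 regions with a peak was 17, 16, 18 and 20 in the WT libraries and 22, 15, 18 and 23 in the Sd/Sd libraries, and the deepest library, Sd/Sd replicate 4, had the most. Over all regions, too, this library had the most, with a peak on 83.3% of them, and the least deep, WT replicate 3, the fewest, on 61.4%. More Sd/Sd than WT libraries had a peak at 10 regions (33.3%, against 29.3% of all regions), fewer at 9 (30.0%, against 13.1%) and as many at 11. No region of the 30 had a peak in 4 of 4 libraries of one genotype and 0 of 4 of the other. The share of all regions with such a split is not given here.

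Peak presence and level differed as measures. Bmp2-d, at percentile 76.5 of level, was called in 2 of 8 libraries, both Sd/Sd, although it held 38.6 to 54.3 CPM in each library. Its density was low, at 24.5 CPM per kb over 1904 bp. In 5 regions (16.7%) a peak was called in Sd/Sd libraries alone (Bmp2-d, Bmp4-c, Bmp7-a, Msx2-a and Msx2-b), and in 0 regions in WT libraries alone. Over all 26620 regions the former held for 6.63%, a smaller share, and the latter for 1.91%. The deepest libraries, Sd/Sd replicates 4 and 1, are both of this genotype, and the part of depth was not tested. Of the 5 regions, Bmp7-a was called in Sd/Sd replicates 2 and 3, and each of the others in Sd/Sd replicate 1 among others. These 5 had log2 fold changes from 0.02 to 0.36, all above 0 and none past the test. Each counted region, among the 30 and over the series, had a peak in at least 2 libraries, so that these 5 were counted through Sd/Sd peaks.

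The authors' fold enrichment of called peaks was highest at Bmp7-d, which reached 9.41 in WT (lowest 5.67) and 8.10 in Sd/Sd (lowest 5.24). It reached 4.73 at Bmp2 and 4.27 at Bmp4. At Msx1 and Msx2 it reached 4.10 and 4.20. At Nog it stayed between 2.38 and 2.84. The Nog regions had levels of 60.6 and 60.1 CPM over widths of 2046 and 1787 bp, a density of 29.6 and 33.6 CPM per kb. At Nog-b a peak was called in 4 of 4 WT and 3 of 4 Sd/Sd libraries.

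**Figure D4:**
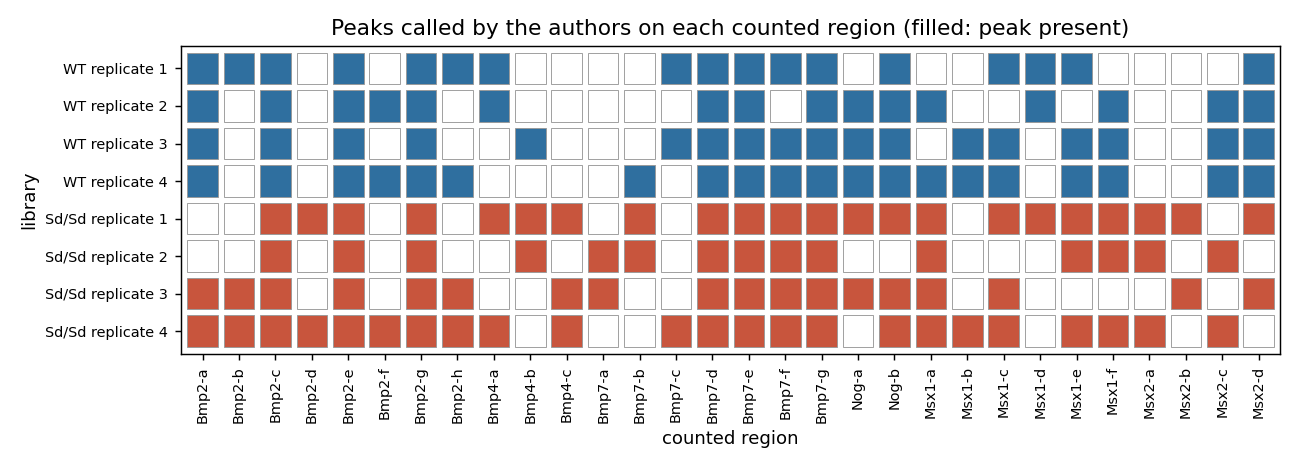
Presence of a peak called by the authors (filled square) on each of the 30 regions (columns) in each library (rows, WT in blue and Sd/Sd in red). Filled columns mark the 6 regions with a peak in 8 of 8 libraries, and Bmp2-d, Bmp4-c, Bmp7-a, Msx2-a and Msx2-b are filled in Sd/Sd rows alone.

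Beside the counted regions, the windows held 17 merged peaks that were not counted, 12 of them called in 1 library only. The Bmp2 window held 12 of these, Bmp7 3, Nog 1 and Msx1 1, and the Bmp4 and Msx2 windows none. Of the 17, 11 were called in Sd/Sd libraries alone and 4 in WT libraries alone. Sd/Sd replicate 4, the deepest library, called 8 of them and Sd/Sd replicate 1, the next deepest, 5. The other 6 libraries called 0 to 3 each. A peak called in 1 library only falls in 1 genotype by necessity. The matching shares over all uncounted peaks of the series are not given here, so the split is no trait of these windows. The part of depth in the split by genotype was not tested.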

How the data were processed

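ATAC-seq libraries of 4 WT and 4 Sd/Sd tailbud samples were grouped by the labels. Per the submitters' processing notes, reads were handled with BWA 0.7.15-r1140, Picard and SAMtools on build mm9, and MACS2 2.1.1.20160309, bedtools 2.26.0, CASAVA and bcl2fastq 2.17.1.14 are also named, with no settings. The authors deposited whole-number counts per region, not normalized, over 26620 regions shared by the 8 libraries, and whether a count is a read, fragment or cut site is not stated. They also deposited broad peaks called per library, with a score, a fold enrichment (ratio) and −log10 p and q values, all the authors' own.

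CPM are counts over the library total of counted regions, which stands for depth. Changes were fitted with edgeR 4.0.16 (quasi-likelihood, robust, TMM, genotype as the only term) in R 4.3.3, with Benjamini-Hochberg adjustment over all regions and a threshold of 0.05. As filterByExpr dropped 0 regions, 30 of 30 members were tested. The procedure was also run on simulated counts, and the outcome is not reported here or used as support. SE and 95% intervals include counting error and library spread. Window sums were fitted with 250 kb bins of the other regions. Peaks overlapped a region by at least 1 bp. DESeq2 1.42.0 and limma 3.58.1 (voom) were alternatives. Python 3.11.15 drew the figures.

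Named were, in each window, the region of highest level, that of smallest p and any with an unadjusted p under 0.05. The genes, windows and lists were chosen with earlier results of these data known. Receptors, SMADs and other BMP pathway genes, and markers of tailbud, blood, endothelial, hindgut and neural cells, were listed but not placed, as no mm9 annotation was used here, so the tissue label was not checked by markers.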

Additional observations from a re-analysis of the deposited data

Results flagged for a closer look

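In 5 of 72 groups of 4 libraries examined (30 regions and 6 window sums in each genotype), a single library lay apart from the rest, which chance would give in about 1 of 20 groups. Sd/Sd replicate 3 was high at Bmp2-b, at 25.6 CPM where the rest of its group held 14.4 to 16.2. At Bmp2-f, WT replicate 2 was high at 29.5 CPM (the rest 22.5 to 23.3) and Sd/Sd replicate 1 low at 16.7 CPM (the rest 23.8 to 24.6). WT replicate 4 was low at both Msx1-d, at 21.1 CPM (the rest 29.6 to 29.8), and Msx2-b, at 7.61 CPM (the rest 10.1 to 10.3).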

How the results depend on the processing

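No region and no window passed an adjusted p of 0.05 under any alternative run: other scalings, DESeq2, limma with voom, a replicate block, leaving out each library and, for regions, other filters and narrower windows, or, for windows, bins of 500 kb. The adjusted p of Nog-b ran from 0.439 (replicate block) to 1.000 (DESeq2), and its unadjusted p from 0.00244 to 0.0326, under 0.05 in 15 of 15 alternatives. The unadjusted p of the Nog window was under 0.05 in 9 of 14 alternatives, from 0.00810 to 0.153, and that of the Bmp7 window in 2, from 0.00863 to 0.454. The count of regions with an unadjusted p under 0.05 was 2 with limma voom and 1 to 3 with 1 library left out. Leaving out 1 library, changes near 0 changed sign: the Bmp2 window ran from -0.021 to 0.047, the Msx2 window from -0.12 to 0.038, Bmp2-c from -0.037 to 0.072 and Nog-a from -0.14 to 0.035 (log2). Others kept their sign but moved in size: Bmp2-h 0.057 to 0.16, Bmp7-c -0.56 to -0.29, Msx1-c -0.16 to -0.044, Msx1-d -0.42 to -0.19 and Msx2-d -0.60 to -0.27. The unadjusted p was under 0.05 in 2 alternatives at Bmp7-c, 1 at Bmp7-d, 2 at Msx1-d and 3 at Msx2-d. The mean number of the 30 regions with a peak per library was 18.6, 11.8 with peaks of q at most 0.01 and 10.8 with an overlap of at least 50% of the region. With a mean count of at least 50, Bmp4-b, Bmp4-c, Bmp7-c, Msx1-b, Msx2-a, Msx2-b and Msx2-c were not tested. Same-numbered libraries of the genotypes correlated at -0.00107 to 0.0918 in their deviations, and differently numbered ones at -0.0473 to 0.0204. The highest value was that of the replicate 4 libraries. All lay under the minimum of 0.1 used for pairing, so the numbers were not taken as pairs. That minimum was set by choice, and counting noise lowers such correlations. The check therefore cannot show that same-numbered libraries are unpaired. With the replicate block, 0 regions and 0 windows passed, and 1 region and 2 windows (Nog at 0.0265 and Bmp7 at 0.0453) had an unadjusted p under 0.05. The cause of these shifts was not tested. Depth limits the weaker regions, with as few as 20 counts in a library at Bmp4-c.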
